A study of Danio rerio with 9 samples.

Results

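The comparison is between embryos with a knockout of kdm4aa and embryos with a knockout of kdm4ab, which are paralogs of the zebrafish kdm4 family. Its members were chosen by genotype and comprise 6 of the 9 libraries of the series, 3 for each knockout. The other 3 libraries are wild-type embryos of the same series and serve here as a reference level. KDM4 proteins are histone demethylases that take methyl groups off H3K9, a mark of silent chromatin, and off H3K36, a mark of transcribed gene bodies. In vertebrate embryos and stem cells, family members are known for keeping genes accessible while cells choose their fates. Zebrafish carry kdm4aa and kdm4ab as separate genes related to the single KDM4A gene of mammals.

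The series was made to find genes downstream of kdm4aa, after delayed development and cell death had been seen in its knockout, and it settled on cyp26a1. All 9 libraries hold poly-A RNA from whole embryos labelled wild type, kdm4aa knockout or kdm4ab knockout. The stage, the strain, the lesion in each gene, whether the embryos were maternal mutants, and the number of embryos per library are not stated in the labels used here. The labels do not place the replicates in separate clutches, and the p-values below therefore measure only how far these libraries spread, which may be technical in part. Because whole embryos were used, fewer cells of a type and less RNA per cell cannot be told apart.

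Library totals ran from 27894551 to 46156237 counts, and 1 library stood apart. Replicate 2 of the kdm4ab knockout had the lowest total and held 14247 genes with a count, against 22025 to 23019 genes in the other 8 libraries. On log2 CPM across genes it correlated with replicates 1 and 3 at 0.828 and 0.808, and every other pair within a group at 0.992 to 0.995. No p is given for these, because genes are no independent replicates. Results are therefore given from a fit of all 9 libraries and from a fit of 8 libraries that leaves replicate 2 out and sets the 3 kdm4aa knockout libraries against replicates 1 and 3. The biological coefficient of variation was 47.5% in the 9-library fit and 13.1% in the 8-library fit. Levels are in CPM, counts per 1000000 of a library scaled by the trimmed mean of M values (TMM). They are listed in the order of replicates 1, 2 and 3, and where levels are joined by the word against, those of the kdm4aa knockout come first. Differences are log2 values of the kdm4aa knockout minus the kdm4ab knockout. Genes were called where the quasi-likelihood test of edgeR, adjusted over all genes tested by the Benjamini-Hochberg method, gave an adjusted p under 0.05. Every adjusted p below comes from that test with 9 libraries unless stated otherwise. The words with 8 mark values of the 8-library fit. A gene with a log2 value from each fit was called in both and in the same direction, unless it is said not to be.

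The transcript of kdm4ab (ENSDARG00000019103) separated the knockouts. It was at 172, 148 and 154 CPM in the kdm4aa knockout and at 2.38, 0 and 2.22 CPM in the kdm4ab knockout, beside 127, 168 and 121 CPM in wild type. All 3 kdm4ab knockout libraries lay far below the other 6, and the kdm4aa knockout libraries overlapped wild type. The log2 difference was 6.65 (SE 1.01, adjusted p 0.00367) with 9 libraries and 6.1 (adjusted p 7.96e-14) with 8. The transcript of kdm4aa (ENSDARG00000018782) did not separate them. It was at 17.9, 14.7 and 17.2 against 13.95, 0 and 15.8 CPM, and at 18.1, 20.6 and 18.5 CPM in wild type. The kdm4aa knockout libraries overlapped replicates 1 and 3 of the kdm4ab knockout, and replicate 2 had no count of this gene. The log2 difference was 0.74 (SE 1.18, adjusted p 0.716) with 9 libraries and 0.16 (adjusted p 0.34) with 8. The kdm4aa level thus gives no check of the kdm4aa knockout labels.

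**Figure D1:**
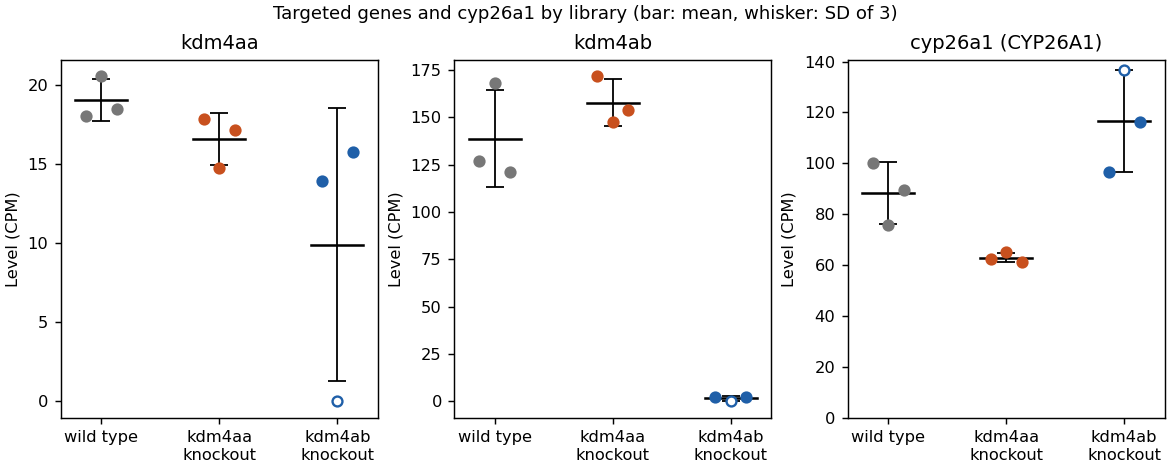
Levels of kdm4aa, kdm4ab and cyp26a1 in each of the 9 libraries, in CPM (scaled counts, one axis per gene), by genotype. Points are single libraries, bars are group means with their SD over 3 libraries, and the open symbol marks replicate 2 of the kdm4ab knockout; kdm4ab is near 0 in all 3 kdm4ab knockout libraries, and cyp26a1 is lower in all 3 kdm4aa knockout libraries than in any kdm4ab knockout library.

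No other family member was called between the knockouts with 9 libraries. KDM4B was at 228, 239 and 239 CPM in the kdm4aa knockout and at 186, 129 and 205 CPM in the kdm4ab knockout (log2 0.44, adjusted p 0.123). The 8-library fit called it higher in the kdm4aa knockout, at a log2 difference of 0.27 (adjusted p 0.0194). The third member tested, kdm4c, was at 77.8, 67.2 and 76.1 against 84.2, 14.3 and 87.4 CPM. Its kdm4aa knockout libraries lay between the low replicate 2 and the other kdm4ab knockout libraries, with a log2 difference of 0.25 (SE 0.527, adjusted p 0.791) in the 9-library fit. The 8-library fit did not call it either, and replicates 1 and 3 alone were above all 3 kdm4aa knockout libraries.

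Across the genome, 3457 of 18998 genes tested (18.2%) were called between the knockouts with 9 libraries. Of these, 1674 genes (8.81%) were higher and 1783 (9.39%) lower in the kdm4aa knockout, and the median log2 difference over all genes was 0.009. A log2 difference of at least 1 was reached by 1087 of the genes called higher (5.72% of those tested) and by 1401 of those called lower (7.37%). With 8 libraries, 10499 of 19882 genes (52.8%) were called, 5176 (26%) higher and 5323 (26.8%) lower, with a median of −0.011. In that fit 2220 genes (11.2%) were higher and 2757 (13.9%) lower by a log2 difference of at least 1. Of the 3457 genes, 3454 were also called in the same direction with 8 libraries. Among the calls with 9 libraries, 395 genes higher and 241 lower differed by a fitted 16-fold or more, values that depend on the prior count where a group is near 0.

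The count of 3457 was 1512, 1625 and 1462 without replicates 1, 2 and 3 of the kdm4aa knockout, and 2263 without wild-type replicate 3. Scaling by library totals in place of TMM moved the median of all genes to −0.155 and the calls to 1195 higher and 2339 lower. In a further count without a test, all 3 kdm4aa knockout libraries lay on one side of all 3 kdm4ab knockout libraries for 7668 of the 18998 genes (40.4%).

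**Figure D2:**
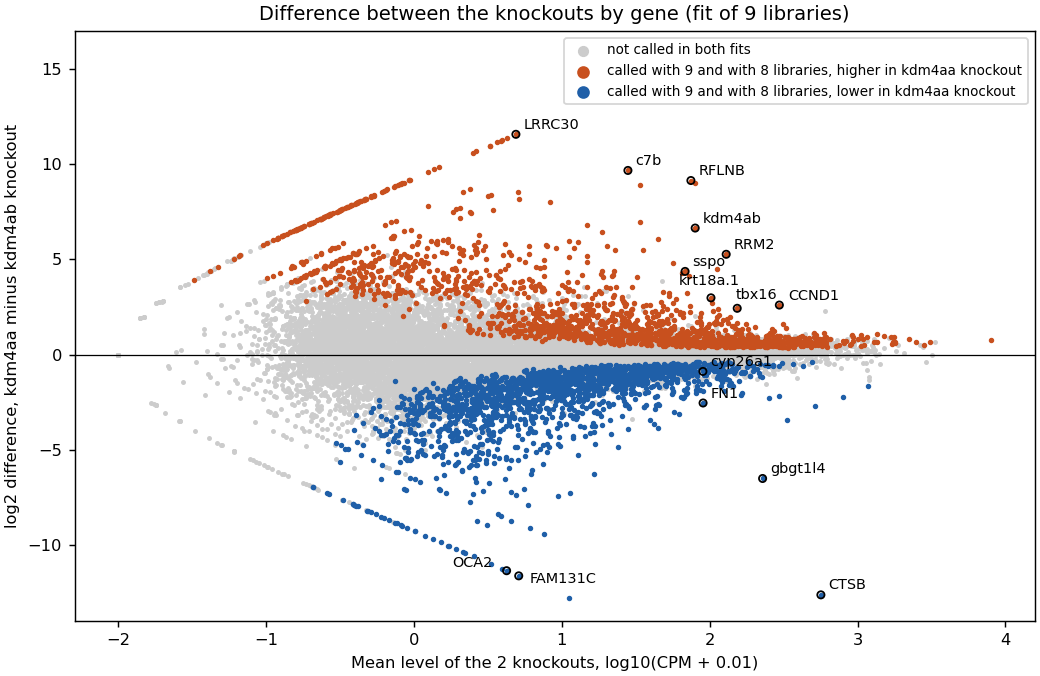
Log2 difference of each gene (kdm4aa knockout minus kdm4ab knockout, fit of 9 libraries) against its mean level over the 2 knockouts, on a log10 axis of CPM + 0.01. Each point is a gene, and colour marks the 3454 genes called in the same direction with 9 and with 8 libraries; named genes are circled, and the straight rims at the left are genes with no count in one knockout.

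Some genes were present in one knockout and missing from the other. No count was found in any kdm4aa knockout library for 16 genes that had at least 1 CPM in each kdm4ab knockout library, and for 28 genes when replicates 1 and 3 were taken alone. In the reverse direction there were 21 genes, and 22 with replicates 1 and 3.

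CTSB, which encodes the lysosomal protease cathepsin B, had the lowest fitted log2 difference among the named genes. It was at 0.145, 0.240 and 0.145 CPM in the kdm4aa knockout and at 1003, 1450.1 and 949 CPM in the kdm4ab knockout, and at 1035, 1096 and 1057 CPM in wild type. The transcript was near 0 in all 3 kdm4aa knockout libraries and abundant in the other 6, with a log2 difference of −12.64 (SE 0.329, adjusted p 1.4e-06, −12.43 with 8). FAM131C had no count in the kdm4aa knockout and was at 10.4, 8.10 and 11.96 CPM in the kdm4ab knockout, at least 122-fold higher in the latter against a floor of 3 counts per library. This floor and the intervals below cover counting error alone. Wild type was at 15.0, 16.2 and 14.5 CPM, so the kdm4aa knockout stood apart from both other groups. MLPH, OCA2 and RAB27B were also near 0 in the kdm4aa knockout. MLPH, which encodes melanophilin, a linker in melanosome transport, was at 0.0579, 0 and 0 against 9.23, 5.75 and 8.33 CPM, a ratio of rates of 441 (exact 95% interval 122 to 3640). OCA2, a melanosome membrane protein, had no count in the kdm4aa knockout and was at 10.18, 3.50 and 11.6 CPM in the kdm4ab knockout, at least 102-fold higher. RAB27B, a small GTPase of secretory granules, also had no count there and was at 4.50, 11.3 and 3.90 CPM in the kdm4ab knockout, at least 79.1-fold higher. The genes with the largest differences were named only where the 2 knockouts did not overlap. For these 3 genes wild type had 2.3 to 13 CPM.

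In a further set, as for OCA2 and RAB27B, replicates 1 and 3 of the kdm4ab knockout lay above wild type and the kdm4aa knockout below it. AK5, an adenylate kinase, was at 0.0579, 0.0599 and 0.0483 CPM in the kdm4aa knockout and at 11.7, 8.27 and 9.37 CPM in the kdm4ab knockout, beside 0.484, 1.32 and 0.798 CPM in wild type (log2 −7.39, adjusted p 0.000173, −7.51 with 8). The receptor gene MCHR2 (ENSDARG00000007842) was at 0.0579, 0 and 0 against 3.81, 13.5 and 4.67 CPM, a ratio of 355 (exact 95% interval 98 to 2940). Wild type had only 0.102, 0.155 and 0.133 CPM of MCHR2. The kdm4ab knockout was above it (log2 5.78, adjusted p 0.00412). The kdm4aa knockout was not called below it with 9 libraries (log2 −2.62, adjusted p 0.193), but was with 8 (adjusted p 0.0228). AK5 and MCHR2 were both called between the knockouts, and a lack of overlap between the knockouts was a condition for naming them. Among genes of at least 100 CPM, gbgt1l4, a glycosyltransferase gene, was at 5.73, 3.77 and 5.22 against 536, 367 and 449.5 CPM. Wild type had 17.4, 15.3 and 12.4 CPM, so this gene was high in the 3 kdm4ab knockout libraries alone, with a log2 difference of −6.52 (SE 0.271, adjusted p 3.62e-05, −6.64 with 8). FN1 (ENSDARG00000019815), which encodes the matrix protein fibronectin, was at 27.6, 23.9 and 27.7 against 189, 60.04 and 214 CPM, a log2 difference of −2.55 (SE 0.411, adjusted p 0.00472, −2.93 with 8). The cell adhesion gene epcam was at 306, 238 and 289 against 886, 2219 and 810.2 CPM (log2 −2.23, adjusted p 0.00515, −1.61 with 8), and wild type lay between the knockouts at 539.9, 526 and 558 CPM.

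In the opposite direction, c7b, a terminal complement component, was at 54.2, 55.2 and 58.4 CPM in the kdm4aa knockout and at 0.0806, 0 and 0.0974 CPM in the kdm4ab knockout. Wild type had 88.9, 82.5 and 85.4 CPM, so the transcript was near 0 in the kdm4ab knockout alone, with a log2 difference of 9.68 (SE 0.466, adjusted p 6.12e-05, 9.26 with 8). The interferon lambda receptor gene ifnlr1 was at 23.1, 23.1 and 20.1 against 0.625, 0 and 0.365 CPM (log2 5.97, adjusted p 0.00179, 5.44 with 8), and ZFPM1, a GATA cofactor of blood and heart development, at 25.2, 25.7 and 25.1 against 0.363, 0 and 0.852 CPM (log2 5.91, adjusted p 0.00269, 5.41 with 8). All 3 wild-type libraries were above both knockouts, at 43.3, 43.0 and 44.6 CPM and 32.5, 38.3 and 31.1 CPM. RRM2 (ENSDARG00000020711), a subunit of the reductase that makes deoxynucleotides for DNA synthesis, was at 268, 211 and 276 against 5.24, 8.54 and 5.89 CPM. Its wild-type level was 608, 574 and 599.9 CPM, its log2 difference was 5.27 (SE 0.234, adjusted p 4.24e-05, 5.5 with 8), and the 3 genotypes did not overlap. Because RRM2 has more than 1 copy in the table, reads could be split between copies.

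Other genes were highest in the kdm4aa knockout, and RFLNB, plxnb2a.2, LRRC30 and epx were near 0 in both other genotypes. RFLNB, which encodes a filamin-binding protein, was at 168, 136 and 144 CPM in the kdm4aa knockout and at 0.141, 0 and 0.609 CPM in the kdm4ab knockout, beside 2.34, 1.11 and 0.288 CPM in wild type (log2 9.15, adjusted p 0.00146, 8.70 with 8). The plexin gene plxnb2a.2 was at 68.3, 63.6 and 70.5 against 0.0806, 0 and 0.317 CPM (log2 8.90, adjusted p 0.000402, 8.5 with 8), beside 1.66, 0.906 and 0.753 CPM in wild type. LRRC30 was at 10.4, 9.38 and 9.52 CPM in the kdm4aa knockout with no count in the other 6 libraries, at least 125-fold higher. The peroxidase gene epx was at 10.1, 9.92 and 9.95 CPM there and at 0.0605, 0 and 0 CPM in the kdm4ab knockout, a ratio of 401 (exact 95% interval 137 to 1950). A more abundant transcript was that of sspo, which encodes SCO-spondin, a component of the Reissner fibre. It was at 128, 136 and 126 against 8.25, 2.82 and 7.82 CPM, a log2 difference of 4.37 (SE 0.386, adjusted p 0.000348, 4.02 with 8). Wild type, at 2.27, 1.99 and 2.02 CPM, lay below both knockouts. CLGN, which encodes the chaperone calmegin, was at 147, 123 and 142 against 9.54, 5.01 and 8.64 CPM, with wild type between them at 32.3, 32.3 and 31.4 CPM (log2 4.15, adjusted p 0.000129, 3.92 with 8).

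**Figure D3:**
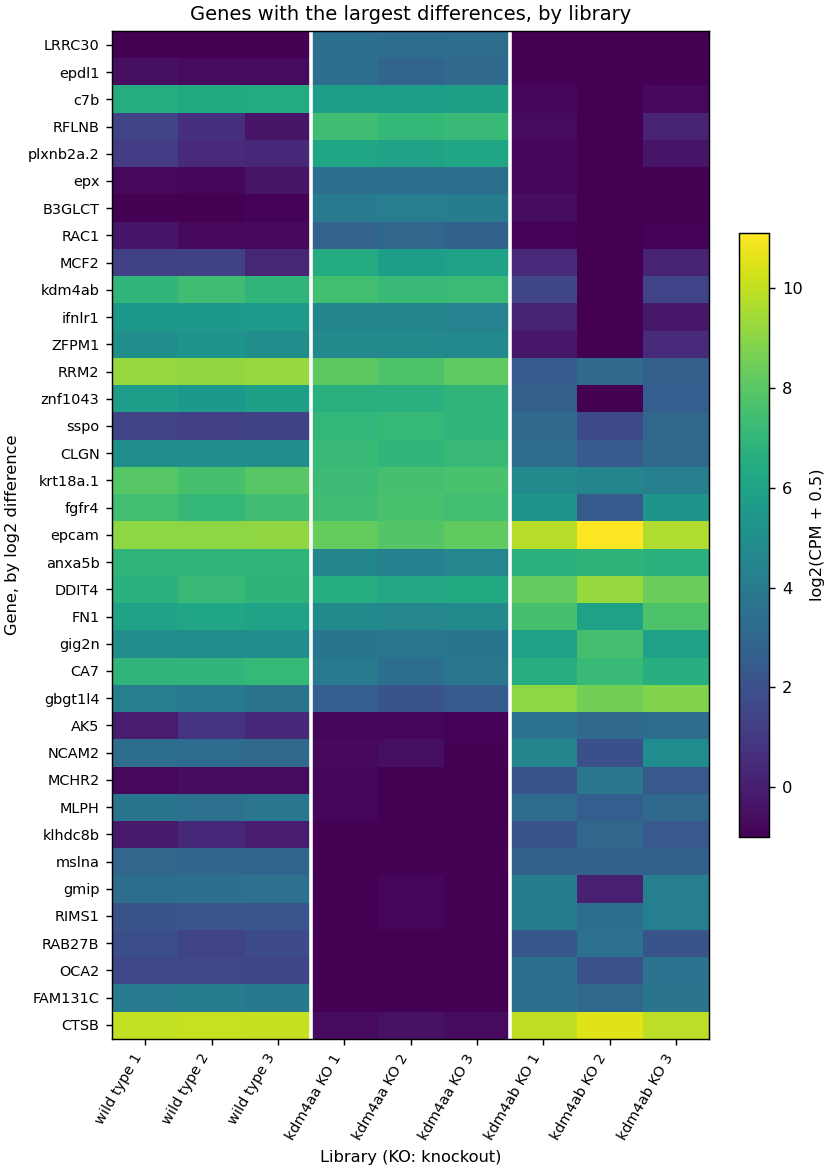
Heat map of the named genes with the highest and lowest log2 differences between the knockouts, 1 row per gene in the order of that difference and 1 column per library, with colour for the level as log2(CPM + 0.5). Rows were chosen so that the kdm4aa and kdm4ab knockout libraries do not overlap. Wild type lies near one of them, between them, or outside both as for sspo and RRM2. The choice set no condition on wild-type levels, but the fits behind the calls included the wild-type libraries.

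Gene lists for signalling pathways, tissues and cell processes were then counted, 43 in all. The lists are read against 8.81% of genes called higher and 9.39% called lower in the 9-library fit, and against medians of 0.009 and −0.011 with 9 and 8 libraries. The 5 lists with the highest shares called higher in the kdm4aa knockout were nodal and mesendoderm genes, epidermis, yolk syncytial layer and liver, blastula genes and the Fgf pathway. The highest shares called lower were in antigen presentation and in cholesterol synthesis. No p is attached to a list. Lists share genes, such as SOX17, called higher in the nodal, endothelial and pancreas lists, so their counts are not separate results. In 36 of the 43 lists, the count of genes called higher or of genes called lower moved by more than 1.5 times in at least 1 of the 8 fits that left out 1 library other than replicate 2 of the kdm4ab knockout. A range or a lowest count over those fits is given below for a part of the lists. In these fits the epidermis list had 10 to 13 genes higher and 2 to 4 lower. The yolk syncytial layer and liver list had 6 to 8 higher and 1 lower. Antigen presentation had 0 higher and 6 to 7 lower. Counts from the 8-library fit are of genes called at a log2 difference of at least 1, the genes higher in the kdm4aa knockout first, and are read against 11.2% higher and 13.9% lower over all genes.

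**Figure D4:**
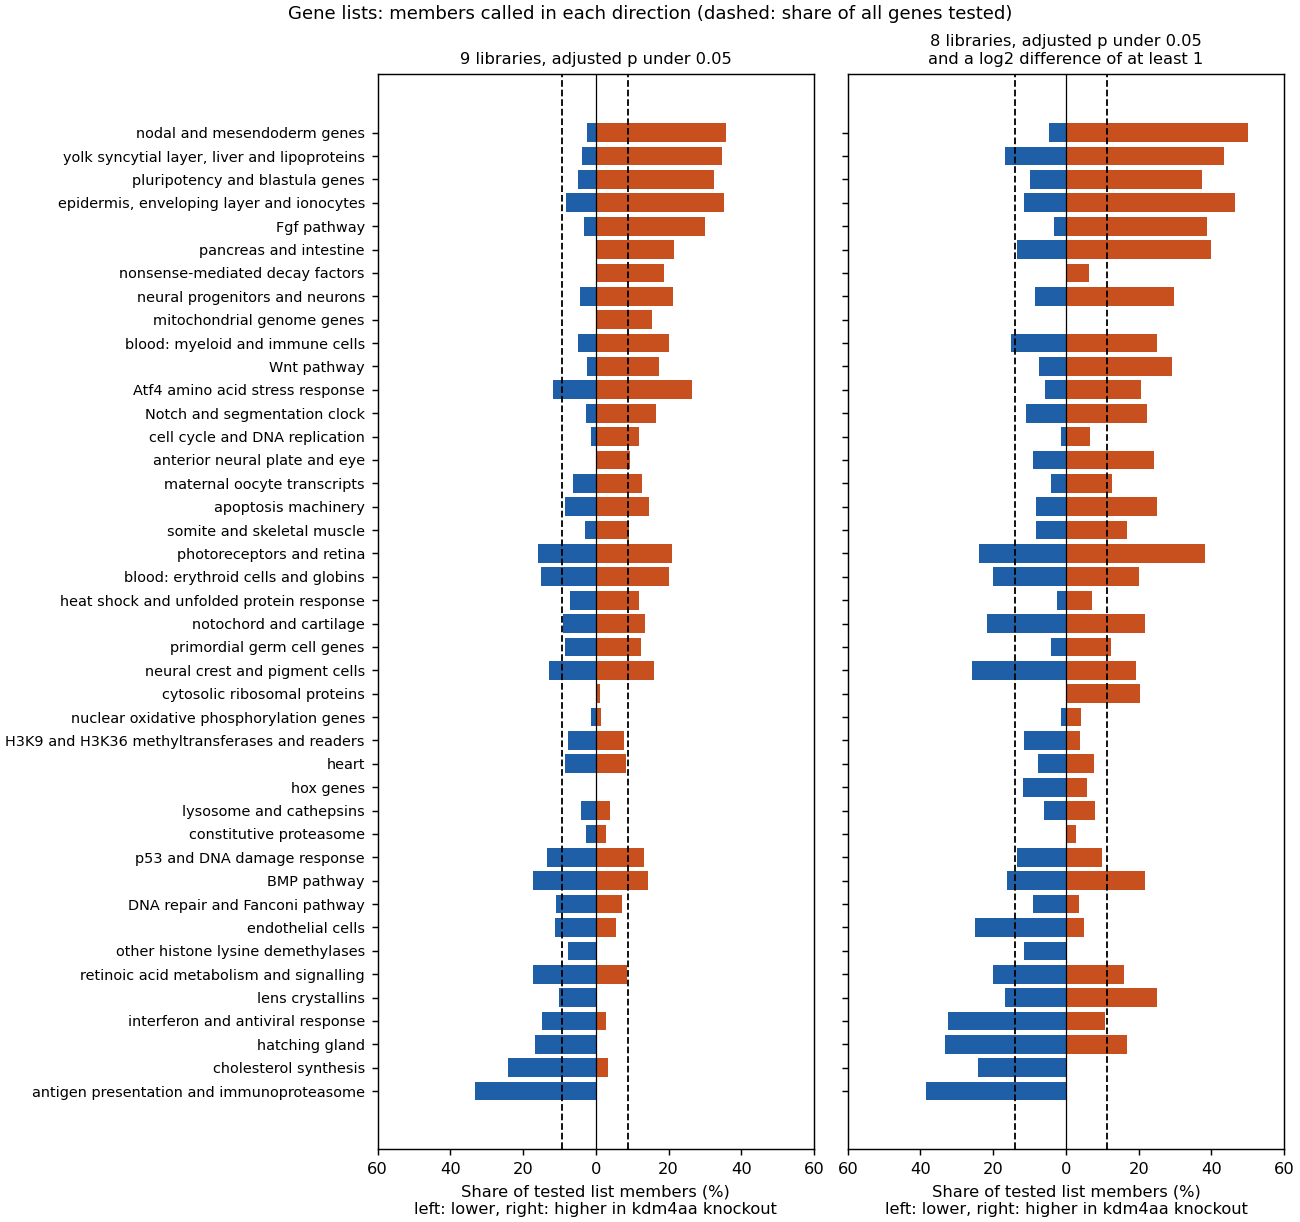
Share of tested members (%) called higher (right) or lower (left) in the kdm4aa knockout than in the kdm4ab knockout, 1 bar pair per list of at least 5 tested genes, with 9 libraries (left panel) and with 8 libraries and a log2 difference of at least 1 (right panel). Dashed lines give the share over all genes tested, 8.81% and 9.39% with 9 libraries and 11.2% and 13.9% with 8; nodal and mesendoderm genes reach far to the right of it in both panels, and antigen presentation genes to the left.

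Nodal signals from the embryo margin set up mesoderm and endoderm in the early zebrafish embryo. Of the nodal and mesendoderm list, 42 of 46 matched genes passed the filter on low counts, 15 were called higher and 1 lower in the kdm4aa knockout, and the median log2 difference was 1.07. The 8-library fit gave 21 higher and 2 lower of 42 by a log2 difference of at least 1, with a median of 1.0. Against wild type the same list had 1 gene higher and 16 lower in the kdm4ab knockout, and the kdm4aa knockout had 2 higher and 4 lower by a log2 difference of at least 1 with 8 libraries (8.08% and 10.8% over all genes), and 0 of either with 9; over all genes 8.97% were higher and 8.04% lower in the kdm4ab knockout, and 4.33% and 4.55% in the kdm4aa knockout. These comparisons share libraries with each other and with the one between the knockouts. The T-box gene tbx16, which drives mesoderm precursors to leave the midline, was at 235, 269 and 274 CPM in the kdm4aa knockout and at 58.5, 28.9 and 56.4 CPM in the kdm4ab knockout. All kdm4aa knockout libraries were above all kdm4ab knockout libraries, with a log2 difference of 2.43 (SE 0.274, adjusted p 0.000988, 2.17 with 8), and each wild-type library was above both, at 429, 309 and 391 CPM. The homeobox gene mixl1, a nodal target, was at 44.7, 38.6 and 47.6 against 13.9, 11.2 and 13.3 CPM, and at 70.0, 48.7 and 60.1 CPM in wild type (log2 1.77, adjusted p 0.000756, 1.68 with 8). GATA5, a regulator of endoderm and heart, was at 7.5, 7.25 and 10.8 against 0.242, 0 and 0.341 CPM (log2 5.38, adjusted p 0.00449, 4.88 with 8), so it was close to absent in the kdm4ab knockout alone. A pair of CXCR4 genes, receptors that guide migrating cells, were both called: ENSDARG00000057633 was at 121, 132 and 125 against 31.3, 48.5 and 34.7 CPM, and ENSDARG00000041959 at 108, 126 and 124 against 55.0, 42.3 and 65.9 CPM. Their log2 differences were 1.72 (SE 0.185, adjusted p 0.000799, 1.93 with 8) and 1.13 (SE 0.193, adjusted p 0.0059, 0.98 with 8). The member called lower was SMAD3 (ENSDARG00000010207), an intracellular transducer of nodal signals (log2 −2.64, adjusted p 0.0168, −2.84 with 8). The count of 15 higher genes dropped to 9 when any kdm4aa knockout or wild-type library was left out.

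Fgf signalling works with nodal at the margin and switches on its own feedback inhibitors. In the Fgf list, 30 of 40 matched genes passed the filter on low counts, 9 were called higher and 1 lower in the kdm4aa knockout, and the median log2 difference was 0.83. With 8 libraries there were 12 higher and 1 lower of 31 by a log2 difference of at least 1, with a median of 0.77. ETV4, a transcription factor that reads out Fgf signalling, was at 38.5, 44.2 and 43.1 CPM in the kdm4aa knockout and at 15.9, 16.2 and 16.4 CPM in the kdm4ab knockout, a log2 difference of 1.38 (SE 0.137, adjusted p 0.000603, 1.38 with 8). All 3 kdm4aa knockout libraries were above the wild-type level of 30.6, 30.3 and 32.4 CPM, and all 3 kdm4ab knockout libraries below it. The ligand gene fgf17 was at 21.8, 22.1 and 19.9 against 6.05, 9.51 and 4.41 CPM (log2 1.68, adjusted p 0.0054, 2.02 with 8). The feedback inhibitor spred2a was at 10.1, 12.2 and 11.8 against 2.68, 1.95 and 1.80 CPM (log2 2.4, adjusted p 0.000676, 2.33 with 8). A ligand of the margin, FGF8 (ENSDARG00000003399), was at 1.42, 0.899 and 2.15 against 0.0806, 0 and 0.0487 CPM (log2 4.90, adjusted p 0.00477, 4.44 with 8), low in every library. The gene called lower was etv5a, another Fgf target (log2 −0.44, adjusted p 0.0473, −0.37 with 8). This call was lost in each of 8 fits that left out 1 library other than replicate 2 of the kdm4ab knockout. Without kdm4aa knockout replicate 1, 5 genes of the list were called higher.

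The Wnt list had 7 genes higher and 1 lower of 40 tested, with a median of 0.54 (12 and 3 of 41 with 8, median 0.33), and 4 higher without any 1 kdm4aa knockout library. CCND1, a cyclin and Wnt target, was at 475, 543 and 506 CPM in the kdm4aa knockout and at 114, 59.5 and 78.4 CPM in the kdm4ab knockout. The kdm4ab knockout was low in all 3 libraries and wild type high at 753, 599.6 and 755 CPM, and the log2 difference between the knockouts was 2.6 (SE 0.24, adjusted p 0.000407, 2.4 with 8). FZD7 (ENSDARG00000060004), a Wnt receptor, was at 86.1, 85.8 and 101 against 42.2, 48.0 and 38.3 CPM (log2 1.09, adjusted p 0.00459, 1.17 with 8). The BMP list, whose pathway patterns the ventral side, went both ways, with 5 genes higher and 6 lower of 35, and a median of 0.30 (8 and 6 of 37 with 8, median 0.19, 3 to 4 higher and 3 to 6 lower in the fits without 1 library). Its ligand bmp7a was at 72.1, 90.5 and 83.4 against 14.5, 14.5 and 13.2 CPM with wild type at 100.01, 74.3 and 95.8 CPM and a log2 difference of 2.54 (SE 0.169, adjusted p 0.000148, 2.56 with 8). The receptor BMPR1A (ENSDARG00000019728) was at 83.4, 83.4 and 86.5 against 182, 141 and 182 CPM with wild type at 168, 179 and 177 CPM, and the log2 difference between the knockouts was −1.0 (SE 0.134, adjusted p 0.00211, −1.11 with 8). For the ligand the kdm4ab knockout was the group below wild type, and for the receptor the kdm4aa knockout was. Neither gene overlapped between the knockouts. The coreceptors RGMA and RGMB were called in opposite directions: RGMA was at 32.2, 40.7 and 26.7 against 6.37, 3.43 and 5.36 CPM, and RGMB at 6.43, 8.27 and 6.09 against 26.6, 26.0 and 26.2 CPM, with log2 differences of 2.71 (SE 0.273, adjusted p 0.000634, 2.5 with 8) and −1.92 (SE 0.2, adjusted p 0.000742, −1.93 with 8). In the Notch and segmentation clock list, 6 genes were higher and 1 lower of 36, with a median of 0.35 (8 and 4 of 36 with 8, median 0.13, 2 to 5 higher and 1 to 1 lower in the fits without 1 library). HEY2, a Notch target, was the lower one at 0.724, 1.44 and 0.290 against 12.4, 8.37 and 10.4 CPM (log2 −3.67, adjusted p 0.00302, −3.84 with 8).

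The list of epidermis, enveloping layer and ionocytes describes the outer cell layers of the embryo. In it, 37 of 58 matched genes passed the filter on low counts, 13 were called higher and 3 lower in the kdm4aa knockout, and the median log2 difference was 1.23. Leaving out replicate 2 gave 20 higher and 5 lower of 43 by a log2 difference of at least 1, with a median of 1.44. Against wild type, the kdm4ab knockout had 2 genes higher and 17 lower, and the kdm4aa knockout 0 higher and 5 lower, or 1 higher and 11 lower of 43 by a log2 difference of at least 1 with 8. The keratin gene krt4 was at 79.9, 94.7 and 87.2 CPM in the kdm4aa knockout and at 11.3, 9.61 and 5.65 CPM in the kdm4ab knockout. The knockouts did not overlap, and each wild-type library was above both, at 198, 154 and 196 CPM, with a log2 difference between the knockouts of 3.30 (SE 0.266, adjusted p 0.000235, 3.35 with 8). The keratin gene krt18a.1 was at 158, 189.8 and 196 against 27.3, 22.6 and 19.1 CPM (log2 2.98, adjusted p 0.000143, 2.96 with 8). ATP1B1 (ENSDARG00000013144), a subunit of the sodium pump, was at 30.1, 29.4 and 31.2 against 4.64, 3.06 and 2.24 CPM, and at 77.0, 66.1 and 76.9 CPM in wild type (log2 3.19, adjusted p 0.000264, 3.12 with 8). Not all surface genes were higher: JUP (ENSDARG00000070787), the junction protein plakoglobin, was at 68.8, 61.7 and 78.3 against 200.3, 219 and 229.6 CPM (log2 −1.64, adjusted p 0.000264, −1.63 with 8), and grhl2a, a Grainyhead-like factor, was called lower too (log2 −1.65, adjusted p 0.0213, −1.23 with 8), as was epcam. The summed level of the list was 1860 to 2040 CPM over the kdm4aa knockout libraries, 2120, 3120 and 2190 CPM in the kdm4ab knockout and 2590 to 3120 CPM in wild type, and includes the epcam levels given above.

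**Figure D5:**
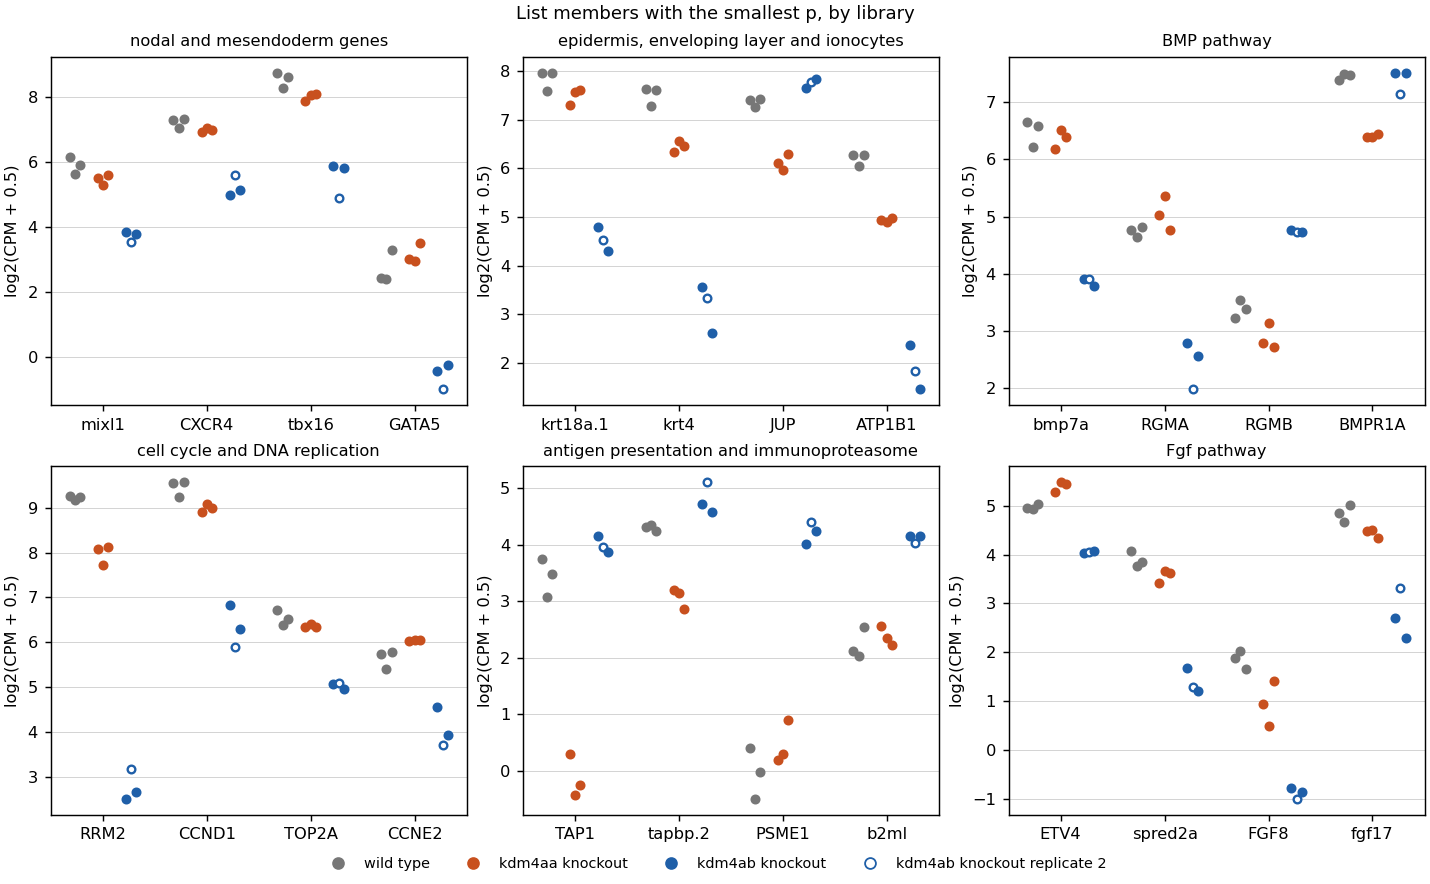
Levels of 4 members in each of 6 lists, as log2(CPM + 0.5), in each of the 9 libraries. The members are those with the smallest p among genes called in both fits. Points are single libraries coloured by genotype, with replicate 2 of the kdm4ab knockout open, and CXCR4 is ENSDARG00000057633. The kdm4aa and kdm4ab knockout libraries do not overlap for any gene drawn, which the choice of called genes favours, nor for 40.4% of all genes tested.

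The yolk syncytial layer and the liver make lipoproteins that carry yolk lipid, and regulators of endoderm are shared with the list for them. Of that list, 26 of 54 matched genes passed the filter on low counts, 9 were called higher and 1 lower in the kdm4aa knockout, and the median log2 difference was 1.16. Without replicate 2 there were 13 higher and 5 lower of 30 by a log2 difference of at least 1, with a median of 1.21. The regulator mxtx1, a homeobox gene of the yolk syncytial layer, was at 34.5, 25.4 and 38.5 CPM in the kdm4aa knockout and at 5.0, 9.45 and 4.41 CPM in the kdm4ab knockout. The kdm4aa knockout libraries overlapped wild type at 29.95, 23.9 and 32.1 CPM and all kdm4ab knockout libraries were below, with a log2 difference of 2.38 (SE 0.328, adjusted p 0.00227, 2.80 with 8). The lipid carrier gene apom had no count in the kdm4ab knockout and 0.782, 0.569 and 0.556 CPM in the kdm4aa knockout, low in every library, at least 8.14-fold higher in the latter. In the small pancreas and intestine list, 3 genes were higher and 0 lower of 14 (6 and 2 of 15 with 8, median 0.31). These 3, SOX17, foxa3 and GATA6, are also among the genes called higher in the nodal and mesendoderm list. GATA6, a gut regulator, was at 3.996, 2.82 and 4.11 against 0.121, 0 and 0.317 CPM (log2 4.57, adjusted p 0.00872, 4.08 with 8). The endoderm gene foxa3 was at 34.4, 31.3 and 41.6 against 2.84, 0 and 3.41 CPM, but its adjusted p of 0.028 rose above 0.05 in 7 of 8 fits that left out 1 library other than replicate 2 of the kdm4ab knockout.

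Genes of the pluripotent blastula included 13 called higher and 2 lower in the kdm4aa knockout among 40 tested of 42 matched, with a median log2 difference of 0.46. Taking replicates 1 and 3 alone, there were 15 higher and 4 lower of 40 by a log2 difference of at least 1, with a median of 0.36. The kdm4ab knockout had 17 of these genes below wild type and 4 above, and the kdm4aa knockout 3 below and 1 above, or 6 below and 2 above by a log2 difference of at least 1 with 8. The myc-family gene mych was at 289, 311 and 284 CPM in the kdm4aa knockout and at 113, 95.7 and 119 CPM in the kdm4ab knockout, and MYCN at 73.2, 81.9 and 80.2 against 20.1, 9.31 and 19.5 CPM. In both, each kdm4ab knockout library was below each of the other 6 libraries, and the log2 differences were 1.43 (SE 0.145, adjusted p 0.000634, 1.35 with 8) and 2.27 (SE 0.296, adjusted p 0.00185, 1.99 with 8). The Krüppel-like factor klf2a was at 59.08, 68.6 and 62.9 against 18.4, 22.7 and 20.2 CPM (log2 1.64, adjusted p 0.000817, 1.72 with 8). The count of 13 was 7 without replicate 2 or replicate 3 of the kdm4aa knockout.

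Neural genes followed, with 10 higher and 2 lower of 47 tested and a median of 0.63 (14 and 4 of 47 with 8, median 0.57). The tubulin gene tubb5 was at 91.2, 87.5 and 80.3 CPM in the kdm4aa knockout and at 18.4, 13.5 and 17.4 CPM in the kdm4ab knockout, and at 26.5, 27.01 and 31.0 CPM in wild type, so wild type lay between (log2 2.39, adjusted p 0.000165, 2.27 with 8). The SoxB1 gene sox19a was at 123, 140.3 and 134 against 62.2, 51.9 and 67.6 CPM (log2 1.13, adjusted p 0.00295, 1.03 with 8). The knockouts did not overlap for either gene. The count was 5 without any 1 kdm4aa knockout library and 6 without kdm4ab knockout replicate 1 or without wild-type replicate 1 or 2. In the anterior neural plate and eye list, 3 genes were higher and 0 lower of 32 (median 0.51, 8 and 3 of 33 with 8, median 0.30). Neural crest and pigment genes split, 5 higher and 4 lower of 31, with a median of −0.18 (6 and 8 of 31 with 8, median −0.37). The fits without 1 library gave 3 to 4 higher and 2 to 5 lower. Early crest regulators were on the higher side: snai1b was at 30.8, 39.5 and 28.9 against 2.5, 5.85 and 2.14 CPM (log2 3.25, adjusted p 0.0014, 3.82 with 8), and FOXD3 at 20.2, 25.3 and 21.4 against 3.79, 9.28 and 5.53 CPM (log2 1.85, adjusted p 0.006, 2.27 with 8). The purine enzyme gene pnp4a, a marker of iridophores, was also higher, at 10.9, 9.20 and 12.8 against 3.39, 0.538 and 3.58 CPM (log2 2.12, adjusted p 0.0448, 1.66 with 8). The 4 members called lower were genes of pigment cells too, MLPH and OCA2 as above, the regulator MITF (ENSDARG00000037833, log2 −3.22, adjusted p 0.0146, −2.98 with 8) and the melanin enzyme gene DCT (log2 −2.30, adjusted p 0.018, −1.55 with 8).

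Notochord and cartilage genes had 3 higher and 2 lower calls of 22 (median 0.19, 5 and 5 of 23 with 8, median −0.52). The notochord regulator noto was at 43.0, 38.4 and 39.1 CPM in the kdm4aa knockout and at 9.25, 14.8 and 5.55 CPM in the kdm4ab knockout (log2 2.03, adjusted p 0.00533, 2.43 with 8). The T-box gene tbxta was at 15.0, 12.3 and 12.7 against 1.77, 0 and 1.51 CPM, low in all 3 kdm4ab knockout libraries; its log2 difference was 3.57 (SE 0.957, adjusted p 0.0349, 3.01 with 8), and the call was lost in each of 8 fits that left out 1 library other than replicate 2 of the kdm4ab knockout. Blood lists were small and mixed, with 4 higher and 3 lower of 20 erythroid genes (4 and 4 of 20 with 8, median −0.50) and 4 higher and 1 lower of 20 myeloid genes (5 and 3 of 20 with 8, median 0.17). The haematopoietic gene drl was at 19.1, 21.99 and 20.7 against 5.97, 5.41 and 6.28 CPM (log2 1.81, adjusted p 0.00206, 1.75 with 8), and the nuclear factor gene blf at 463, 426 and 526 against 189, 156 and 199.9 CPM (log2 1.38, adjusted p 0.00247, 1.28 with 8). Endothelial genes gave 1 higher and 2 lower of 18 (1 and 5 of 20 with 8, median −0.15), among the latter stab2, a scavenger receptor of vessels, at 4.98, 5.18 and 5.56 against 23.6, 16.7 and 23.0 CPM (log2 −2.01, adjusted p 0.000824, −2.15 with 8). In the heart list, 1 gene was higher and 1 lower of 12 (1 and 1 of 13 with 8, median 0.25); TBX20, a cardiac T-box gene, was at 2.201, 1.86 and 2.08 against 22.4, 12.2 and 20.5 CPM, a log2 difference of −3.16 (SE 0.291, adjusted p 0.000402, −3.39 with 8). Somite and skeletal muscle genes gave 3 higher and 1 lower of 33 (6 and 3 of 36 with 8, median 0.04). Photoreceptor genes gave 4 and 3 of 19 (8 and 5 of 21 with 8, median 0.78), lens crystallins 0 and 1 of 10 (3 and 2 of 12 with 8, median −0.20), and hatching gland genes 0 and 1 of 6 (1 and 2 of 6 with 8, median −0.84). The level summed over the lens crystallin list was 5.21 to 5.81 CPM over the kdm4aa knockout libraries, 5.26, 8.2 and 5.48 CPM in the kdm4ab knockout and 7.33 to 9 CPM in wild type, so markers of this late tissue were low in all genotypes.

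Antigen presentation stood on the other side. The list covers the class I molecules that show peptides on the cell surface, the transporter that loads them and the immunoproteasome that cuts them. Of it, 24 of 34 matched genes passed the filter on low counts, 0 were called higher and 8 lower in the kdm4aa knockout, and the median log2 difference was −1.06. Without replicate 2 there were 0 higher and 10 lower of 26 by a log2 difference of at least 1, with a median of −0.92. Set against wild type, the kdm4ab knockout had 5 genes higher and 0 lower, and the kdm4aa knockout 2 higher and 5 lower, or 2 and 9 by a log2 difference of at least 1 with 8. TAP1, a chain of the peptide transporter, was at 0.724, 0.240 and 0.338 CPM in the kdm4aa knockout and at 17.3, 15.06 and 14.1 CPM in the kdm4ab knockout. Wild type was at 12.9, 7.92 and 10.7 CPM, so the transcript was low in the kdm4aa knockout libraries, with a log2 difference of −5.15 (SE 0.454, adjusted p 0.000347, −5.18 with 8). PSME1, a proteasome activator subunit, was at 0.637, 0.719 and 1.35 against 15.7, 20.8 and 18.4 CPM and at 0.815, 0.207 and 0.488 CPM in wild type, so here the kdm4ab knockout libraries were the high ones (log2 −4.33, adjusted p 0.00147, −4.21 with 8). The class I light chain gene b2ml was at 5.42, 4.61 and 4.18 against 17.4, 15.9 and 17.3 CPM (log2 −1.83, adjusted p 0.00204, −1.88 with 8), with wild type at 3.85, 3.596 and 5.36 CPM. The class I heavy chain gene mhc1laa was called lower (log2 −1.82, adjusted p 0.0315, −1.03 with 8), and reads of such genes can be split between near-identical copies.

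Genes of the interferon and antiviral response gave 1 higher and 5 lower of 34 tested, with a median log2 difference of −0.55. With replicates 1 and 3 alone there were 4 higher and 12 lower of 37 by a log2 difference of at least 1, with a median of −0.76. The ubiquitin-like gene isg15 was at 32.8, 21.3 and 40.5 CPM in the kdm4aa knockout and at 119.8, 147 and 123 CPM in the kdm4ab knockout, and at 32.2, 19.6 and 20.8 CPM in wild type. It was high in all 3 kdm4ab knockout libraries and overlapped between the kdm4aa knockout and wild type, with a log2 difference of −2.04 (SE 0.283, adjusted p 0.00238, −1.94 with 8). The guanylate-binding protein gene gbp1 was at 2.58, 1.41 and 4.03 against 40.7, 31.8 and 32.2 CPM (log2 −3.70, adjusted p 0.000698, −3.75 with 8), with wild type between at 14.9, 13.2 and 17.9 CPM. The Mx-family gene mxc was at 0, 0 and 0.0483 against 3.53, 1.65 and 4.58 CPM, a ratio of 187 (exact 95% interval 51.4 to 1550).

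Cholesterol synthesis had 1 gene higher and 7 lower of 29 tested, with a median of −0.15, and 0 higher and 7 lower of 29 by a log2 difference of at least 1, with a median of −0.07, without replicate 2. MVD, an early enzyme of the pathway, was at 3.59, 4.16 and 3.70 CPM in the kdm4aa knockout and at 12.2, 8.98 and 12.9 CPM in the kdm4ab knockout (log2 −1.57, adjusted p 0.00559, −1.71 with 8). IDI1, an isomerase of the pathway, was the gene called higher, at 127, 124 and 122 against 74.9, 71.3 and 61.7 CPM (log2 0.84, adjusted p 0.00328, 0.86 with 8). The count of 7 was 4 without kdm4aa knockout replicate 1 or 2.

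The study selected cyp26a1, which encodes the enzyme that clears retinoic acid, from the same libraries, and its direction is therefore no independent support. In the table it stands as CYP26A1 (ENSDARG00000033999). It was at 62.5, 65.0 and 61.2 CPM in the kdm4aa knockout and at 96.5, 137 and 116 CPM in the kdm4ab knockout, and at 100.01, 75.5 and 89.5 CPM in wild type. Every kdm4aa knockout library was below every library of the kdm4ab knockout and of wild type, and those groups overlapped each other. The log2 difference was −0.89 (SE 0.167, adjusted p 0.00893) with 9 libraries and −0.76 (adjusted p 2.48e-05) with 8, and a test against a fold of 1.5 did not call it (adjusted p 0.109 with 9 libraries and 0.079 with 8). Against wild type, with shared libraries, the log2 differences were −0.49 (adjusted p 0.121) for the kdm4aa knockout and 0.40 (adjusted p 0.137) for the kdm4ab knockout in the 9-library fit. With 8 libraries they were −0.49 (adjusted p 0.000839) and 0.27 (adjusted p 0.0545), so the kdm4aa knockout was called lower than wild type in that fit. Of 23 tested retinoic acid genes, 2 were higher and 4 lower, with a median of −0.33 (4 and 5 of 25 with 8, median −0.37). The binding protein gene CRABP1 (ENSDARG00000035904) was at 0.0290, 0.0899 and 0.0483 against 1.81, 7.97 and 2.58 CPM, and up to 0.0255 CPM in wild type, so it was near 0 outside the kdm4ab knockout (log2 −6.14, adjusted p 0.00449, −5.24 with 8). ALDH1A2, which makes retinoic acid, was at 0.695, 1.23 and 1.18 against 0.0403, 0 and 0.0487 CPM, low in every library. No hox gene of 14 tested was called with 9 libraries in edgeR's quasi-likelihood test, 3 had an unadjusted p under 0.05, and DESeq2 called 1 higher and 2 lower; with 8 libraries 1 was higher and 2 lower by a log2 difference of at least 1.

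Cell cycle and DNA replication genes had 9 higher and 1 lower of 76, beside 8.81% and 9.39% over all genes, and a median of 0.04 (5 and 1 of 76 with 8, median 0.21). Besides RRM2 and CCND1, TOP2A, a topoisomerase of dividing cells, was at 81.0, 84.7 and 80.9 CPM in the kdm4aa knockout and at 33.0, 33.8 and 30.7 CPM in the kdm4ab knockout (log2 1.34, adjusted p 0.000634, 1.37 with 8), and CCNE2, a cyclin of S-phase entry, at 65.1, 66.1 and 66.4 against 23.1, 12.7 and 14.8 CPM (log2 1.96, adjusted p 0.00134, 1.79 with 8). Genes of DNA repair gave 4 higher and 6 lower of 55, with a median of −0.09 (2 and 5 of 55 with 8, median −0.25, 1 to 4 higher and 2 to 6 lower in the fits without 1 library). The strand-exchange paralog RAD51C was at 4.92, 2.79 and 4.59 against 15.7, 36.7 and 14.02 CPM (log2 −2.43, adjusted p 0.00675, −1.85 with 8), and RAD51B at 47.1, 47.0 and 41.5 against 19.6, 28.6 and 19.3 CPM (log2 1.01, adjusted p 0.0087, 1.22 with 8), in opposite directions.

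Cell death was among the phenotypes that started the study. With 9 libraries 26.7% of the p53 list and 22.9% of the apoptosis list were called, beside 18.2% over all genes. Calls went in both directions. In the apoptosis list more genes were higher than lower with 8 libraries, beside 11.2% higher and 13.9% lower over all genes. The p53 and DNA damage list had 4 genes higher and 4 lower of 30 (median −0.11, 3 and 4 of 30 with 8, median −0.19, 2 to 4 higher and 1 to 4 lower in the fits without 1 library), and the apoptosis list 7 and 4 of 48 (median 0.04, 12 and 4 of 48 with 8, median 0.42, 3 to 6 higher and 1 to 4 lower in the fits without 1 library). Several of the 7 genes called higher in the apoptosis list are identifiers of 1 symbol, HTRA2. The paralogs of the stress gene family GADD45 split. GADD45A (ENSDARG00000043581) was at 19.8, 12.9 and 19.0 CPM in the kdm4aa knockout and at 45.5, 62.1 and 50.7 CPM in the kdm4ab knockout, and GADD45B (ENSDARG00000027744) at 28.5, 32.7 and 24.9 against 7.80, 10.9 and 7.11 CPM, with log2 differences of −1.61 (SE 0.238, adjusted p 0.00315, −1.48 with 8) and 1.74 (SE 0.242, adjusted p 0.00238, 1.94 with 8). Wild type had 4.79, 4.17 and 3.26 CPM of GADD45A, below both knockouts. AIFM1, a mitochondrial death effector, was at 162, 146 and 148 against 84.5, 73.7 and 89.7 CPM (log2 0.88, adjusted p 0.00281, 0.80 with 8). The survival gene bcl2a was at 5.94, 6.17 and 6.43 against 15.6, 12 and 14.7 CPM (log2 −1.19, adjusted p 0.00412, −1.30 with 8), with wild type above both knockouts at 16.8, 16.8 and 16.3 CPM.

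Amino acid shortage and protein damage each set off a stress response. In the Atf4 list, the response to missing amino acids, 9 genes were higher and 4 lower of 34 (median 0.31, 7 and 2 of 34 with 8, median 0.14); the 9 became 4 without any 1 kdm4aa knockout library and 5 without any 1 wild-type library, and scaling by library totals gave 5 higher and 5 lower. SLC3A2, a chain of amino acid transporters, was at 44.1, 31.2 and 45.7 CPM in the kdm4aa knockout and at 4.09, 5.38 and 4.43 CPM in the kdm4ab knockout, with wild type between at 16.2, 12.8 and 17.4 CPM, a log2 difference of 3.12 (SE 0.238, adjusted p 0.000197, 3.24 with 8). The stress sensor sesn2 was at 24.6, 17.1 and 18.1 against 7.34, 4.30 and 5.06 CPM and at 7.31, 6.31 and 7.67 CPM in wild type (log2 1.84, adjusted p 0.00326, 1.68 with 8). DDIT4, an inhibitor of growth signalling, went the other way, at 89.1, 80.0 and 82.7 against 298, 616 and 334 CPM (log2 −2.31, adjusted p 0.00137, −1.91 with 8). The heat shock and unfolded protein list had 5 higher and 3 lower of 42 (median 0.23, 3 and 1 of 42 with 8, median 0.27, 2 to 3 higher and 0 to 3 lower in the fits without 1 library), and 2 higher and 4 lower under scaling by library totals. With 9 libraries 19% of this list was called, near the 18.2% over all genes. The small heat shock gene HSPB1 was at 197, 197 and 210.2 against 71.7, 55.3 and 66.6 CPM (log2 1.64, adjusted p 0.000452, 1.54 with 8).

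Of 24 genes on the list for germ cells, the precursors of eggs and sperm, 3 were higher and 2 lower (3 and 1 of 24 with 8, median 0.22), 20.8% called beside 18.2% over all genes. The higher ones were TDRD7, a Tudor protein of germ granules, and the CXCR4 pair, which the nodal and mesendoderm list also holds. TDRD7 was at 44.5, 38.6 and 44.6 CPM in the kdm4aa knockout and at 4.48, 1.68 and 4.77 CPM in the kdm4ab knockout, beside 1.60, 0.854 and 1.04 CPM in wild type. Both knockouts lay above wild type, the kdm4aa knockout by far more. The log2 difference between the knockouts was 3.54 (SE 0.425, adjusted p 0.0013, 3.20 with 8). Of 47 maternal transcripts 6 were higher and 3 lower (6 and 2 of 47 with 8, median 0.25), 19.1% called. The oocyte regulator figla was at 7.07, 4.46 and 5.70 against 17.3, 42.3 and 16.7 CPM (log2 −2.14, adjusted p 0.00732, −1.56 with 8), and cth1, a maternal RNA-binding protein gene, at 919.8, 741 and 739 against 377, 502 and 409 CPM (log2 0.90, adjusted p 0.00879, 1.03 with 8).

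Other histone lysine demethylases also take methyl groups off histone H3, in part at the same sites as KDM4 proteins. Among 26 of them 0 were higher and 2 lower, 7.69% called with 9 libraries and 53.8% with 8, beside 18.2% and 52.8% over all genes. KDM2B (ENSDARG00000036593), which acts on H3K36, was at 11.3, 13.5 and 12.2 CPM in the kdm4aa knockout and at 98.0, 43.6 and 92.2 CPM in the kdm4ab knockout. Wild type was between the knockouts at 28.8, 29.2 and 27.5 CPM, and the log2 difference was −2.66 (SE 0.294, adjusted p 0.000917, −2.95 with 8). KDM7A was at 24.4, 28.9 and 27.6 against 78.7, 29.95 and 77.7 CPM (log2 −1.20, adjusted p 0.0357, −1.54 with 8), a call lost in each of 8 fits that left out 1 library other than replicate 2 of the kdm4ab knockout. Among 26 H3K9 and H3K36 methyltransferases and readers, 2 were higher and 2 lower, 15.4% called with 9 libraries and 57.7% with 8. CBX1 (ENSDARG00000004189), a reader of methylated H3K9, was at 548, 487 and 508 against 352, 316 and 322 CPM (log2 0.64, adjusted p 0.0066, 0.61 with 8).

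Some lists depended on replicate 2 of the kdm4ab knockout. Cytosolic ribosomal protein genes had a median of −0.49 with 9 libraries, with 1 higher and 0 lower of 79. With 8 libraries their median was 0.81. By adjusted p alone 78 of 79 were then called higher, beside 26% over all genes. A log2 difference of at least 1 was reached by 16 of them, beside 11.2% over all genes. Their summed level was 8290 to 10100 CPM over the kdm4aa knockout libraries, 5460, 25300 and 4660 CPM in the kdm4ab knockout and 6200 to 6480 CPM in wild type. Replicate 2 was thus the highest library and the other 2 libraries of its group the lowest. Nuclear oxidative phosphorylation genes had medians of −0.55 and 0.28, from sums of 3410 to 3710 CPM over the kdm4aa knockout libraries, 2670, 7680 and 2580 CPM in the kdm4ab knockout and 2450 to 2550 CPM in wild type. Medians of the constitutive proteasome (−0.23 and 0.30) and of maternal transcripts (−0.22 and 0.25) also changed sign, as did those of other histone demethylases (0.15 and −0.13), notochord and cartilage (0.19 and −0.52) and endothelial cells (0.40 and −0.15). For these 7 lists no direction of the list between the knockouts is given. The mitochondrial genome gave 2 higher and 0 lower of 13 (0 and 0 of 13 with 8, median 0.12), nonsense-mediated decay factors 3 and 0 of 16 (1 and 0 of 16 with 8, median 0.23), and lysosomal genes 2 and 2 of 50 (4 and 3 of 50 with 8, median 0.02). LIPA, a lysosomal lipase, was at 26.0, 24.7 and 22.7 CPM in the kdm4aa knockout and at 4.58, 3.40 and 5.84 CPM in the kdm4ab knockout (log2 2.41, adjusted p 0.000788, 2.23 with 8), opposite to CTSB.

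Replicate 2 could be set beside calls that did not use it. Of genes at 5 CPM or more on average in the kdm4aa knockout or in replicates 1 and 3, the 8-library fit called 1265 lower in the kdm4aa knockout by a log2 difference of at least 1, and replicate 2 was above all 3 kdm4aa knockout libraries in 876 of them (69.2%). The same was so in 37.1% of the genes not called. Of 933 genes called higher, replicate 2 was below all 3 kdm4aa knockout libraries in 808 (86.6%), beside 56% of the genes not called. Replicate 2 had no count in 215 of these 933 genes and in 121 of the 1265 called lower. A missing count puts it below any library that has counts of the gene. Whether such counts are missing for technical reasons was not tested. The 8-library calls thus rest on 2 kdm4ab knockout libraries, and the third library lay on the same side for these shares of them.

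Genes next to the targeted loci were counted last. On chromosome 6, 19 of 82 tested neighbours of kdm4aa (23.2%) were called with 9 libraries and 47 (57.3%) with 8. On chromosome 2, 21 of 100 neighbours of kdm4ab (21%) and 53 (53%) were called. Over all 13388 genes placed on a chromosome the shares were 18% and 54.4%.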

How the data were processed

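Poly-A RNA of whole zebrafish embryos was sequenced in 9 libraries, 3 each from wild type, the kdm4aa knockout and the kdm4ab knockout, and grouped by the submitters' labels. The authors deposited 1 table of raw read counts for 32520 Ensembl genes, of which 5076 had no count in any library. Per the submitters' processing notes the genome build was GRCz11 (danRer11); the aligner, the counting program and the use of strand are not given in the sources here, so reads of a gene and of an overlapping or antisense gene, or of near-identical paralogs, may not be separated. Symbols were matched by Ensembl identifier for 29201 genes, and 1719 symbols stood on more than 1 identifier.

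The counts were filtered with filterByExpr, scaled by TMM and tested with edgeR 4.0.16 (quasi-likelihood F-test) in R 4.3.3, with 1 mean per group, no covariate, the contrast kdm4aa knockout minus kdm4ab knockout and Benjamini-Hochberg adjustment over all genes tested. The same fit was made with 8 libraries, without replicate 2 of the kdm4ab knockout. Standard errors are approximate, the log2 difference divided by the square root of F. Counting depth was 27894551 to 46156237 per library, so 3 counts, the floor used where a group had none, is about 0.1 CPM. Ratios carry exact 95% intervals, which cover counting error alone. A chi-square comparison of counts found no pair of libraries that agreed within sampling noise. The procedure was tested on simulated data. With 9 libraries 67% of genes changed by a fold of 4 and 5% of those changed by a fold of 2 were recovered. With 8 libraries the shares were 100% and 98%. All libraries were drawn with the same spread for a gene, so 1 library that stands apart was not imitated. Only 100 genes per fold were changed, all at 5 CPM or more. The shares therefore do not give the power of the comparison in the real data.

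The libraries compared and the 43 gene lists, with 1813 entries of which 1689 matched, were chosen with earlier results of these data known. Named genes are the targets and cyp26a1. They also include the 12 highest and 12 lowest log2 differences among genes called in both fits with at least 5 CPM in 1 knockout, no overlap and an informative symbol, and the 8 highest and 8 lowest of at least 100 CPM. Up to 4 members per list with the smallest p among those called in both fits were taken as well, or up to 2 by the 8-library fit where there were none. From these the text names a part, and KDM4B, kdm4c, SMAD3, etv5a, grhl2a, MITF, DCT, mhc1laa and pnp4a were chosen after their values were seen; a few genes that the rule names are not reported here. Alternatives were other scalings and filters, the removal of libraries, DESeq2 1.42.0, limma 3.58.1 voom with sample weights, glmTreat with a fold of 1.5 and a replicate block. Neighbours of the targets, up to 50 on each side, were taken from the gene order of a RefSeq table of another assembly, GRCz12tu, without its coordinates. For kdm4aa there were 32 before and 50 after it in that order. Figures were drawn with matplotlib 3.10.9 and pandas 2.3.3 in Python 3.11.15.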

Additional observations from a re-analysis of the deposited data

How the results depend on the processing

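The count of 3457 genes between the knockouts ran from 1462 to 10499 when 1 library was left out, the lowest without replicate 3 of the kdm4aa knockout and the highest without replicate 2 of the kdm4ab knockout. With that replicate and 1 other knockout library left out it ran from 8719 to 9846. Fits of the knockouts alone gave 1259 with 6 libraries and 10169 with 5. DESeq2 gave 5359, limma voom with sample quality weights 10096, with a weight of 0.0204 on replicate 2 of the kdm4ab knockout, and glmTreat with a fold of 1.5 gave 1663. The cause of these shifts was not tested, except that glmTreat asks for a larger difference by construction. Scaling by library totals kept the count at 3534, but 33.8% of calls were higher, against 48.4% with TMM. Replicate numbers carry no stated pairing, and deviations of same-numbered knockout libraries correlated at −0.121, 0.0995 and 0.246; a replicate block gave 2012 genes, and 10009 with 8 libraries. The kdm4ab call and the absence of a kdm4aa call held under every alternative run; cyp26a1 lost its call under glmTreat alone, at log2 differences of −0.89 and −0.76. No value changed sign past the threshold. Of 163 other named genes, 40 of 162 tested lost the call with 6 libraries. It was lost by 30 or 31 without a kdm4aa knockout replicate, 29 under glmTreat and 21 under the block. The fit without replicate 2 of the kdm4ab knockout could lose none, because a call in it was part of the rule that chose the genes. Low counts limited genes under about 1 CPM, where a group may hold no count. Replicate 2 of the kdm4ab knockout also had no count in genes far above that level. Among genes of at least 50 CPM that the 8-library fit called higher by a log2 difference of at least 1, these were 13 of 227. The reason for these missing counts was not tested.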
